A study of Mus musculus with 20 samples.

Results

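The 7 genes described here encode structural and small soluble proteins of axons and nerve terminals: the neurofilament subunits Nefl (light), Nefm (medium) and Nefh (heavy), the related subunit Ina (alpha-internexin), the intermediate filament protein Prph (peripherin), and the synucleins Sncg (gamma) and Sncb (beta). They were chosen by symbol, and all 7 were found once among the 37994 genes of the table of the developmental plates and among the 36104 genes of the table of the other E18 plates. The tissue was the mouse habenula, a paired nucleus of the dorsal diencephalon that sends its axons to the midbrain through the fasciculus retroflexus.

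Neurofilaments are heteropolymers: Nefl is the core subunit, Nefm and Nefh contribute the long side arms, and Ina takes part in central neurons as Prph does in peripheral ones and in some central neurons. The subunits do not appear together in development: Ina and Prph are known as early subunits and Nefh as a late one that accompanies the growth of axon calibre. Synucleins are small proteins of nerve terminals that bind vesicle membranes. Sncb is known from brain synapses, and Sncg from sensory, motor and some central neurons.

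Single cells were sorted into 384-well plates and sequenced by CEL-seq2, which counts messenger 3' ends by UMI, a random barcode on each molecule. The developmental set had 15 plates of the line Brn3a-tauLacZ, a reporter of Pou4f1 (Brn3a), the transcription factor of habenular neurons: 2 plates each at embryonic days E11, E13, E15 and E18, at postnatal days P4 and P7 and in adults, and 1 at E12. The other 5 plates were from C57BL/6 mice at E18, with 2 from the left habenula, 2 from the right and 1 from both sides; the title of that last plate says E1 where its other labels say E18. The labels do not give the allele dose of the reporter, the sex, the gate of the sort, the number of animals in a plate or the sequencing run, so a p-value measures the spread between plates, which may be technical.

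A well was kept with at least 1000 counts outside spike-ins and mitochondrial genes, 500 genes and no more than 20% mitochondrial counts, which left 3729 of 5756 wells of the developmental set and 1082 of 1920 of the C57BL/6 set. Levels are given as CPM, the usual scaling of a gene's counts to the total of the kept wells of a plate, over 758697 to 7760372 counts a plate. In such sums, fewer cells of a type and less RNA per cell cannot be told apart. Pou4f1 was found in 70 of 137 kept wells on E13 plate 2, in 75 of 267 on E18 plate 1 and in 21 of 56 and 180 of 342 on the adult plates; at E11 it was found in 285 of 309 and 304 of 345. E13 plate 2 and E18 plate 1 stood apart: a list of 10 neuron markers summed to 5894 and 3581 CPM there, against 6059 to 14498 on the others, and 4 ependymal or choroid plexus markers to 3823 and 964 CPM, against at most 178 elsewhere. A list of 7 progenitor markers was also highest on E18 plate 1, at 2345 CPM against at most 1083 on the others. Adult plate 1 kept 56 wells, at a median of 11.9% mitochondrial counts, and the oligodendrocyte list summed to 10647 and 2453 CPM on the adult plates, against at most 159 elsewhere.

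In the GENCODE M21 annotation of mm10, Nefl (chromosome 14, 68083863 to 68089095, plus strand, 4 exons) lies inside the span of Nefm (chromosome 14, 68082590 to 68124846, minus strand), whose longer transcript runs across it. The sources used here do not say whether counting used strand, so counts of the pair are uncertain to that extent. The same holds for Ina (chromosome 19, 47014698 to 47025327, plus strand), which overlaps Nt5c2 on the other strand. No annotated gene overlaps Nefh (chromosome 11, 4938754 to 4948064, minus), Prph (chromosome 15, 99055174 to 99058978, plus), Sncg (chromosome 14, 34370274 to 34374789, minus) or Sncb (chromosome 13, 54758860 to 54766595, minus).

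The promoters of Prph, Sncg and Sncb are printed, of the 4 members with an entry, to set 3 time courses side by side: Prph was highest at E11, Sncg was high at E11 and E12 and Sncb was highest after birth. Each runs from 250 bases before the RefSeq start to 50 bases after it (build GRCm38.p6, 5' to 3' on the gene's strand). Capitals mark TATAAA, the TATA box, or GGGCGG, a GC box, on either strand (GGGCGG reads CCGCCC on the other). The windows are chr15:99054924-99055223 (plus) for Prph, chr14:34374620-34374919 (minus) for Sncg and chr13:54766546-54766845 (minus) for Sncb.
Prph: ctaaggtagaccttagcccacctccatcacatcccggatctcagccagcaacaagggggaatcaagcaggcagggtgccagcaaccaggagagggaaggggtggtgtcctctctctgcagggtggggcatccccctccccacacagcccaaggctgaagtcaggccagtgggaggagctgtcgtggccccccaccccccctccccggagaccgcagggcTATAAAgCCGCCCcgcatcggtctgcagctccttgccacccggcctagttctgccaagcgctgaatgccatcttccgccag
Sncg: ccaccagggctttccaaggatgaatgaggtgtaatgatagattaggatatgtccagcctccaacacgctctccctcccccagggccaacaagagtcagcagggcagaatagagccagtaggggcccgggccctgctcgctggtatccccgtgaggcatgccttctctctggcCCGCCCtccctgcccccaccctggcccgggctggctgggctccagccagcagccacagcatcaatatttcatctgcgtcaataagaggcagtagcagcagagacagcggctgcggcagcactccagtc
Sncb: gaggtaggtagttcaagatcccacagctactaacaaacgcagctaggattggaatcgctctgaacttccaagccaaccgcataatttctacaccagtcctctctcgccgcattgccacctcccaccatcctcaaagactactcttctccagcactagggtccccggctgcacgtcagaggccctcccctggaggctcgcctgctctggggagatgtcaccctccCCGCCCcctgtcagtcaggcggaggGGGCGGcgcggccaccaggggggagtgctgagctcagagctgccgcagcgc
Prph had TATAAA 31 bases before its start, and none of the other 3 members with an entry (Sncg, Sncb and Ina) had it in this window. Of all 32851 promoters of this length, 13.6% held TATAAA and 35.7% held GGGCGG. The box GGGCGG occurred once in Prph and Sncg and 2 times each in Sncb and Ina. TAATTA, a core shared by many homeodomain factors and held by 5.29% of promoters, was in none of these 4 windows.

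Nefl was highest at E11, at 987 and 800 CPM on plates 1 and 2, and stood at 557 CPM at E12. It was 225 and 25.5 CPM at E13, 19.0 and 68.4 at E15, and 5.99 and 65.6 at E18. After birth the P4 plates had 126 and 103 CPM, the P7 plates 224 and 218 and the adult plates 191 and 136. The course thus had a high start, low levels from E13 plate 2 to E18, and a postnatal level between them. E11 and E12 did not overlap any later plate, and E13, E15 and E18 overlapped one another. For this and the other members, the share of all genes whose stages lay apart in such ways was not counted. Non-overlap between stages therefore does not set a member apart. In adult plate 1, 90 of the 144 Nefl UMIs came from 1 well, and the level without it was 87.3 CPM.

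Nefm followed the same course. It was 734 and 725 CPM at E11, 328 at E12, 146 and 25.5 at E13, 22.3 and 31.8 at E15, and 9.18 and 27.1 at E18. It was 42.6 and 41.4 CPM on the P4 plates, 103 and 97.5 on the P7 plates and 132 and 96.5 on the adult ones, where the same well of plate 1 held 61 of 100 UMIs. The P4 plates lay above both E15 and both E18 plates and below both P7 plates, while the P7 and adult plates overlapped.

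Nefh, the heavy subunit, ran the other way. It was 5.60 and 9.19 CPM at E11, 15.4 at E12, 9.66 and 2.66 at E13, 2.71 and 5.65 at E15, and 1.60 and 12.1 at E18. It was then 22.6 and 22.4 CPM on the P4 plates, 49.2 and 49.3 on the P7 plates and 73.9 and 103 on the adult ones. Every postnatal plate was above every embryonic one, and the P4, P7 and adult plates did not overlap. The share of all genes with such a course was not counted. On E13 plate 2, E15 plate 1 and E18 plate 1 the level rested on 4 or 5 UMIs.

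Ina was high at E11 and E12 and again at P4. It was 3673 and 3693 CPM at E11 and 3576 at E12, 1639 and 707 at E13, 650 and 1793 at E15, and 173 and 1839 at E18. It was 2404 and 2668 CPM on the P4 plates, 1706 and 1624 on the P7 plates and 613 and 543 on the adult ones. The plates of E13, E15 and E18 overlapped widely, the lower plate of each pair being one with a lower neuron list, whereas P4, P7 and adult did not overlap. The neuron list was 10252 against 11895 CPM on E15 plates 1 and 2, 10875 against 5894 at E13 and 3581 against 10578 at E18.

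Prph was low on every plate and highest on the E11 plates. It was 5.80 and 10.0 CPM on the E11 plates, from 30 and 49 UMIs in 18 of 309 wells (5.83%, exact 95% interval 3.49% to 9.05%) and 26 of 345 wells (7.54%, 4.98% to 10.8%); intervals here cover counting error only. At E12 it was 0.421 CPM, from 2 UMIs. It was at 0 on 1 E13 plate, both E15 plates, 1 P4 plate, both P7 plates and both adult plates, and at 0.307 to 1.51 CPM, from 2 UMIs each, on the other E13 and P4 plates and on E18 plate 2. E18 plate 1 stood nearer to E11, at 3.99 CPM from 10 UMIs in 8 of 267 wells. The 0 of 326 and 0 of 294 wells at P7 allow a share of wells with a Prph UMI of up to 0.920% and 1.02%, which sets no limit on wells that express Prph without a UMI. The mean level at E11 was at least 17.3-fold higher than the P7 plates' floor of 3 counts per plate, which is 0.457 CPM on average.

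The Prph-positive E11 wells all held Pou4f1 (18 of 18 and 26 of 26), against 91.8% and 87.1% of the other wells. They were Nefl-positive too (18 and 26, against 88.0% and 87.1%), and 15 and 23 of them held Sncg (against 76.3% and 65.5%). Their median depth was 17866 and 17954 counts against 15567 and 11596 in the other wells, and the part of depth in these shares was not tested. Prph is also a marker of sensory ganglia; among these wells Isl1, a transcription factor of sensory neurons, was found in 1 and 0. The 9 measured sensory ganglion genes summed to 77.3 and 80.3 CPM on the E11 plates and to 51.7 to 273 CPM over all 20 plates. On E18 plate 1, 1 of 8 Prph-positive wells was Pou4f1-positive, against 28.6% of the other wells of that plate.

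Sncg was 451 and 440 CPM at E11 and 369 at E12, then 38.6 and 2.12 at E13, 2.71 and 22.6 at E15, and 1.60 and 34.7 at E18. It was 30.7 and 17.9 CPM on the P4 plates, 41.8 and 50.8 on the P7 plates and 115 and 94.3 on the adult ones. E11 and E12 stood above every later plate. Both adult plates stood above both P7 plates, and both P7 plates above both P4 plates.

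Sncb had a different course from Sncg: 12.0 and 13.7 CPM at E11, 11.6 at E12, 5.68 and 1.06 at E13, 3.80 and 20.8 at E15, and 0 and 38.4 at E18. It was 127 and 122 CPM on the P4 plates, 181 and 168 on the P7 plates and 153 and 246 on the adult ones. Every postnatal plate was above every plate up to E18, and the adult plates enclosed the P7 plates. The share of all genes that lay apart in this way was again not counted.

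**Figure D1:**
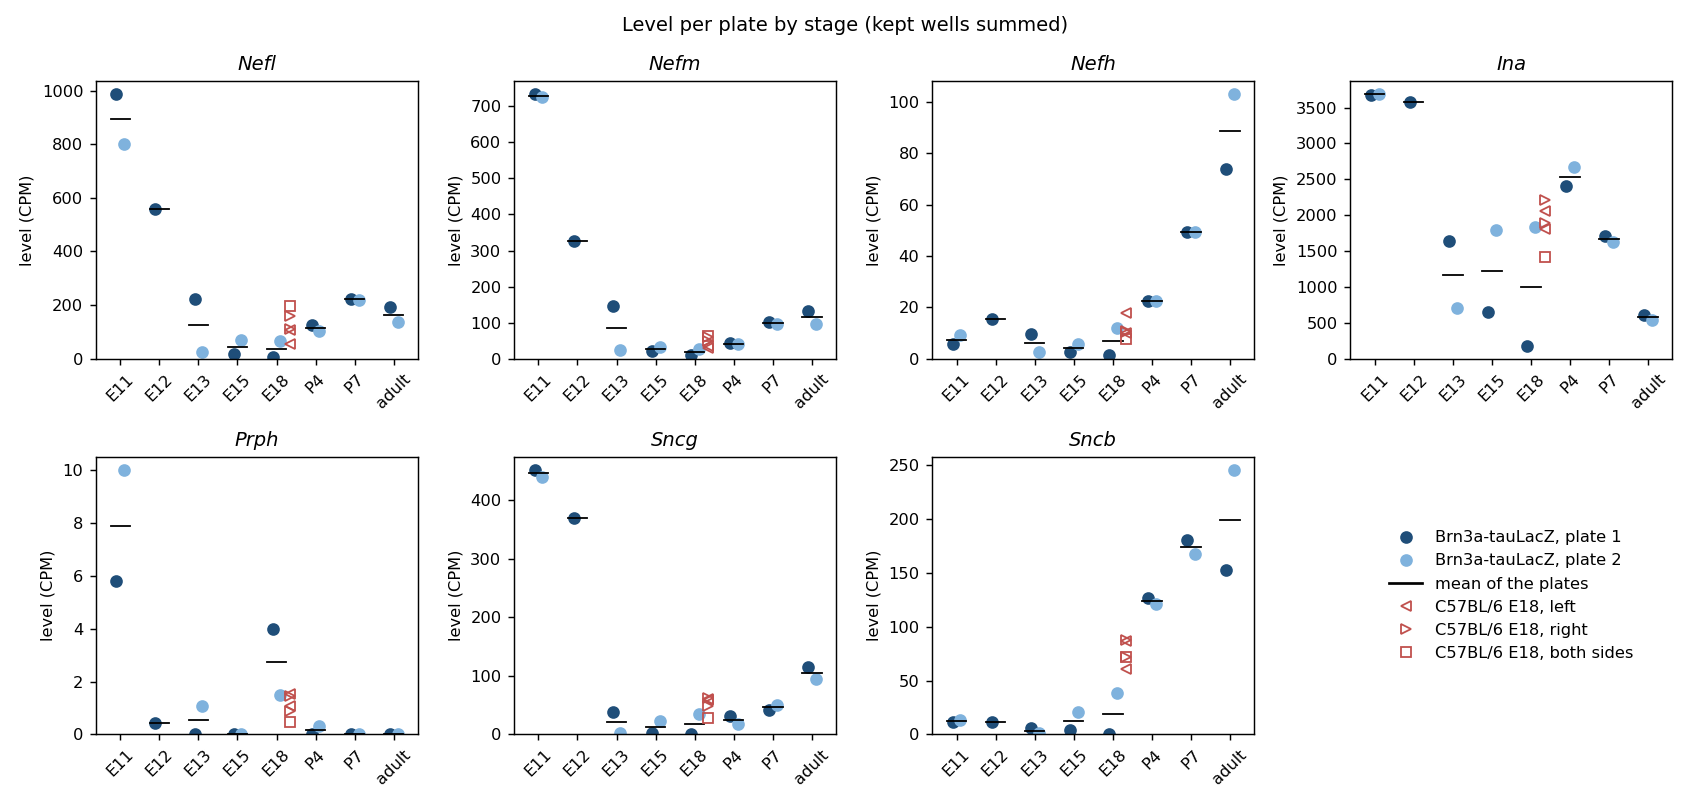
Level of each gene (CPM, linear axis from 0) against stage; each dot is 1 plate of Brn3a-tauLacZ mice, bars are means of the plates of a stage, and open red symbols are the C57BL/6 plates at E18. Nefl, Nefm and Sncg were highest at E11 (Nefl at 987 and 800 CPM), whereas Nefh and Sncb were higher on every postnatal plate than on any embryonic plate of the same line. The share of all genes that lay apart in these ways was not counted.

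Stages were compared with edgeR's quasi-likelihood test over 14 plates (E12, with 1 plate, entered no test), with 17453 genes tested and p-values adjusted over all of them. From E11 to P7, 5 of 7 members were called at an adjusted p under 0.05, where 28.6% of all genes were called. Lists of region markers differed between the same plates: 5 thalamus markers summed to 4677 and 5008 CPM at E11 and to 1295 and 1355 at P7, 7 lateral habenula markers to 2965 and 2978 and to 620 and 692, and 10 medial habenula markers to 1447 and 1398 and to 7140 and 7290.4. In the lateral habenula list, Gpr151 and Pvalb were at 0 on E11 plate 1, and Pvalb on E11 plate 2 and P7 plate 1. These sums therefore do not measure the cells of a region. The part of these lists in the members' changes was not tested. Nefh rose by 2.78 on the log2 scale (SE 0.61, adjusted p = 0.00682) and Sncb by 3.81 (SE 1.03, adjusted p = 0.0179). Nefm fell by 2.81 (SE 0.65, adjusted p = 0.00834), Sncg fell by 3.22 (SE 1.04, adjusted p = 0.0384) and Prph fell to 0 (adjusted p = 0.00497). Nefl and Ina were not called, at -1.96 (SE 0.97, adjusted p = 0.154) and -1.10 (SE 0.84, adjusted p = 0.35). The spread in this fit came from all 14 plates; in a fit of the 4 plates of E11 and P7 alone, 7 of 7 members were called, where 63.2% of all genes were.

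Calls from E11 to P7 changed when a plate was left out. Nefh was not called without E11 plate 1 (adjusted p = 0.0812). Nefm was not called without either P7 plate (adjusted p = 0.0694 and 0.0741). Sncb was not called without any of the 4 plates of E11 and P7 (adjusted p from 0.0592 to 0.131). Sncg was not called without any of the plates of E11, P4, P7 and adults (adjusted p from 0.0547 to 0.207), nor by DESeq2 (adjusted p = 0.0651). Prph kept its call in every fit run. With E18 plate 1 left out, Nefl was called too, and 6 of 7 members were, where 33.5% of all genes were.

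From E11 to E13, 1 of 7 members was called, with 1.45% of all genes called: Nefm fell by 3.21 (SE 0.67, adjusted p = 0.0425). Sncg had a log2 change of -4.59 (SE 1.16, adjusted p = 0.075), Nefl of -2.95 (adjusted p = 0.173) and Ina of -1.78 (adjusted p = 0.302). Nefh was at -0.42 (adjusted p = 0.803) and Sncb at -2.09 (adjusted p = 0.444), and Prph, with 2 UMIs over both E13 plates, was not called (unadjusted p = 0.00987, adjusted p = 0.147). Without E13 plate 2, which stood apart, Nefm was at -2.47 and was not called. Nor was it without either plate of E11, P4, P7 or adults (adjusted p of these 9 fits from 0.0556 to 0.222), whereas 4 members (Nefl, Nefm, Sncg and Ina) were called without E18 plate 1 or E18 plate 2, where 5.5% and 4.66% of all genes were called. Without E13 plate 1, Nefm (-5.12) and Sncg were called, where 2.39% of all genes were. With E13 plate 2, E15 plate 1 and E18 plate 1 left out together, the plates with the lower neuron list at their stage (a choice made after seeing the data), the same 4 members were lower at E13, with 2.7% of all genes called. Nefm was then at -2.46 (adjusted p = 0.000523), Sncg at -3.66 (adjusted p = 0.000438), Nefl at -2.13 (adjusted p = 0.00179) and Ina at -1.31 (adjusted p = 0.00474).

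Between adjacent later stages no member was called in this fit. The share of all genes called was 0.0917% from E13 to E15, 0.195% from E15 to E18, 19.6% from E18 to P4, 0.00573% from P4 to P7 and 3.58% from P7 to adult, and 1, 1, 3, 0 and 0 members had an unadjusted p under 0.05. Among the 6 members other than Prph, log2 changes ran from -1.54 (Nefm) to 2.12 (Sncb) from E13 to E15, from -0.78 (Nefm) to 0.28 (Nefh) from E15 to E18 and from -1.64 (Ina) to 1.05 (Sncg) from P7 to adult. Prph, at 0 on both E15 plates, both P7 plates and both adult plates, is given no fold: its adjusted p was 0.573 from E13 to E15, 0.189 from E15 to E18 (unadjusted p = 0.0129, the 1 member under 0.05) and 1 from P4 to P7. DESeq2 called 1 member, Nefh, from E18 to P4 (adjusted p = 0.0466), and none in the other 4 contrasts. From E18 to P4 the log2 changes were 2.13 for Nefh (SE 0.71, adjusted p = 0.0549) and 3.04 for Sncb (SE 1.07, adjusted p = 0.0653), 1.91 for Nefl, 1.49 for Nefm, 1.48 for Ina and 0.76 for Sncg (adjusted p from 0.146 to 0.66), and Prph was not called (adjusted p = 0.0672). This contrast moved with the E18 plates. Without E18 plate 2, 7 of 7 members were called (Prph as lower), 28.5% of all genes were, and the change of Ina was 4.25 instead of 1.48; the E18 side was then plate 1 alone, with its low neuron list and its ependymal markers, whose part in these calls was not tested. Without E18 plate 1, 0 of 7 members were called, where 8.51% of all genes were. Without E13 plate 1 or E13 plate 2, 2 members were called (Nefh and Nefm), where 17.5% and 17.8% of all genes were. From E15 to E18, leaving out E18 plate 2 gave 2 members (Ina and Sncb) as lower, again against E18 plate 1 alone, where 10.5% of all genes were called. From P7 to adult it gave Ina, where 7.87% of all genes were called.

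From P4 to P7 the plates of each stage lay close together, and a fit of those 4 plates alone called 6 of the 6 members it tested, with 3.64% of all genes called. Nefm rose by 1.24 (adjusted p = 0.0012), Nefh by 1.12 (adjusted p = 0.00281), Nefl by 0.94 (adjusted p = 0.00395), Sncg by 0.92 (adjusted p = 0.0478) and Sncb by 0.47 (adjusted p = 0.0397), and Ina fell by 0.62 (adjusted p = 0.0159). The fit of all 14 plates gave these members, in the same order, log2 changes of 1.24, 1.11, 0.94, 0.92, 0.47 and -0.63, with larger standard errors (0.56 to 0.99) and no call. From P7 to adult the 4-plate fit called Ina, which fell by 1.55 (adjusted p = 0.0267), and Sncg, which rose by 1.13 (adjusted p = 0.0488), with 4.79% of all genes called. The oligodendrocyte list was 159 and 148 CPM at P7 against 10647 and 2453 in adults, and the neuron list 8204 and 8703 against 6065 and 6059. Without myelin-rich wells the adult levels were 706 and 559.6 CPM for Ina and 126 and 97.5 CPM for Sncg, below and above both P7 plates. Pou4f1-negative wells remained among these. In Pou4f1-positive wells, fitted over all 14 plates, Ina was at -1.42 (adjusted p = 0.222) and Sncg at 1.14 (adjusted p = 0.446), and neither was called. The part of the cell mixture in these changes was not tested.

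The same tests were made on the wells with a Pou4f1 UMI, which were 2933 over the 15 plates before E12 was left out. E18 plate 1 then held 75 wells, in which Ina was 414 CPM instead of 173, against 1935 CPM in the Pou4f1-positive wells of E18 plate 2. From E11 to P7, 5 of 7 members were called (35% of 16353 genes): Nefh at 2.78 (SE 0.43, adjusted p = 0.000425), Sncb at 3.82 (SE 0.73, adjusted p = 0.00183), Nefm at -2.79 (SE 0.53, adjusted p = 0.00171), Sncg at -3.22 (SE 0.78, adjusted p = 0.00726) and Prph. Of these, Sncg alone lost its call when a plate was left out (either P7 plate, adjusted p = 0.0697 and 0.0875). Nefl was at -1.95 (SE 0.75, adjusted p = 0.0604) and was called when any one of the plates of E13, E15 or E18 was left out (adjusted p from 0.0231 to 0.0444). Ina was at -1.08 (adjusted p = 0.192).

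From E11 to E13 in these wells, Nefm fell by 3.0 (SE 0.54, adjusted p = 0.0189) and Sncg by 4.30 (SE 0.87, adjusted p = 0.0302), with 1.78% of genes called. The size rested on the E13 plates: Nefm was at -4.75 without E13 plate 1 and -2.31 without plate 2, and Sncg at -7.63 and -3.50. Neither was called without either E11 plate, and Sncg also lost its call without E13 plate 2 or any P4 or P7 plate (adjusted p from 0.0526 to 0.192). Nefl, at -2.75 (adjusted p = 0.107), was called without E13 plate 1 or either E18 plate. Nefh was at -0.11 (adjusted p = 0.949), Ina at -1.57 (adjusted p = 0.234) and Sncb at -1.87 (adjusted p = 0.417), and Prph was not called (adjusted p = 0.125). From E18 to P4, Sncb rose by 2.61 (SE 0.76, adjusted p = 0.0314), with 20.4% of genes called. It was at 1.73 without E18 plate 1 and at 11.9 without E18 plate 2, where Sncb was at 0 on the remaining E18 plate, so that the size is no bound. It was not called without E18 plate 1, either P4 plate or P7 plate 2 (adjusted p from 0.053 to 0.105), nor when neurons were gated by 5 of 10 neuron markers (adjusted p = 0.0583) or tested by DESeq2 (adjusted p = 0.134). Nefh, at 1.58 (SE 0.53, adjusted p = 0.0534), was called without either plate of E13 or E15, E18 plate 2 or adult plate 1, Nefm (1.11 with all plates) without either E13 plate, and Ina (1.26) without E18 plate 2. Nefl, Sncg and Prph were not called (adjusted p = 0.178, 0.847 and 0.21). No member was called from E13 to E15, E15 to E18, P4 to P7 or P7 to adult (0.11%, 0.159%, 0.00612% and 3.68% of genes called). Among the 6 members other than Prph, log2 changes in these 4 contrasts ran from -1.78 (Nefm) to 1.81 (Sncb), from -0.40 (Nefm) to 0.79 (Sncb), from -0.59 (Ina) to 1.28 (Nefm) and from -1.42 (Ina) to 1.14 (Sncg). Prph had adjusted p = 0.703, 0.421 and 1 in the first 3 and was at 0 throughout the last.

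The share of wells in which a gene was found was compared at equal depth. Wells were thinned to 2000 UMIs each, since depth differed between plates, and shallower wells were left out. Nefl was then found in 71.5% and 68.1% of E11 wells, 18.7% and 16.2% at P4 and 26.9% and 27.0% at P7; before thinning these were 88.7% and 88.1%, 65.5% and 65.8%, and 76.4% and 70.7%. Sncg was found in 44.3% and 37.2% of thinned E11 wells, and in 4.68% and 4.44% at P4 and 9.57% and 7.45% at P7. Sncb was found in 1.64% and 2.95% of thinned wells at E11, and in 21.2% and 20.0% at P4 and 25% and 25.2% at P7. Nefh was found in 1.31% and 1.77% at E11 and in 10.5% and 8.51% at P7. On the adult plates, with 40 and 327 thinned wells, the shares were 7.50% and 14.7% for Nefl, 27.5% and 13.8% for Sncg, 20% and 24.5% for Sncb and 7.50% and 14.7% for Nefh. From E11 to P4 and P7 these 4 genes kept the order of their levels. On the adult plates the shares of Nefl lay below those at P4 while its CPM lay above, which on adult plate 1 rested on the 1 well with most of its UMIs (87.3 CPM without it). Sncb on adult plate 2 was found in about the same share of wells as at P7, at higher CPM.

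Single wells of the adult plates show where the members were found. On adult plate 2, the 179 Pou4f1-positive wells that were not rich in myelin genes held Nefh in 81.0%, Sncb in 92.2%, Nefl in 73.2%, Nefm in 67.0%, Ina in 97.2% and Sncg in 58.7%. The 26 myelin-rich wells of that plate, which should lack these genes, held them in 0%, 15.4%, 7.69%, 3.85%, 30.8% and 0%, at a median of 6602.5 UMIs against 22191. On adult plate 1, 6 of 19 myelin-rich wells held Sncg (31.6%), against 12 of 17 Pou4f1-positive wells, at medians of 4031 and 14200 UMIs. Among the myelin-rich wells the share was highest for Ina on both plates (10 of 19 on plate 1). These wells were shallower, so their shares are not those at the depth of the Pou4f1-positive wells, and whether some held 2 cells was not tested. Without the myelin-rich wells the adult levels were 229 and 141 CPM for Nefl, 85.8 and 107 for Nefh, and 175 and 253 for Sncb.

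**Figure D2:**
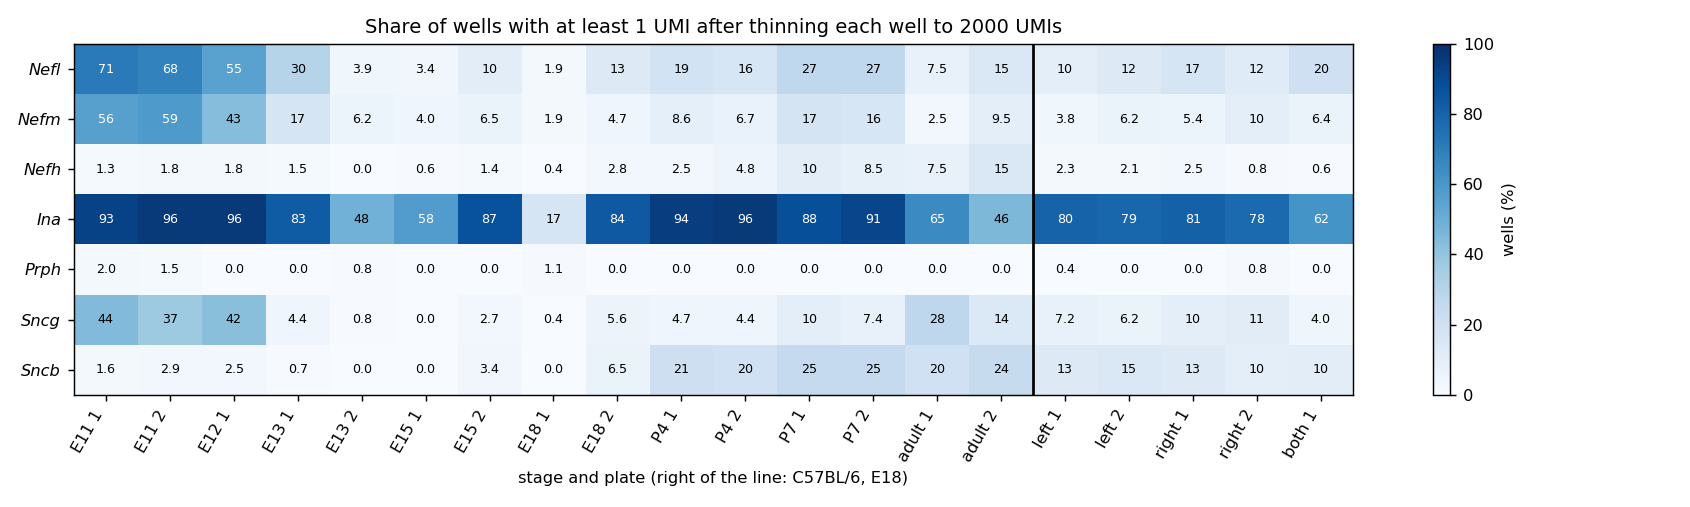
Share of kept wells (percent, colour and printed value) with at least 1 UMI of each gene after thinning to 2000 UMIs, by plate; the 5 columns right of the line are C57BL/6 plates at E18. Nefl, Nefm and Sncg were found most often at E11 and E12 (Nefl in 71.5% of wells on E11 plate 1), and Sncb in 20.0% to 25.2% of wells on the P4 and P7 plates.

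Over the 13 plates with at least 20 thinned wells with and without Nefl, Nefm was found more often in the wells that held Nefl on 13 plates. The same held for Ina on 12 plates, Sncg and Sncb on 11 each, Nefh on 7 and Prph on 0. On most of these plates Prph was found in no thinned well of either kind. Its count therefore does not show that it was apart from Nefl. The exceptions for Sncg were P4 plate 2 (3.92% against 4.55%) and right plate 1 of the C57BL/6 mice (8.70% against 10.4%), and at E12 the shares were 43.9% and 40.8%. In thinned E11 wells, Nefm was found in 66.1% and 69.3% of Nefl-positive wells and in 31.0% and 36.1% of the others, and Sncg in 50.5% and 41.1% against 28.7% and 28.7%. At P7, Nefl was found in 51.6% and 42.9% of the 31 and 21 Sncg-positive wells and in 24.2% and 25.7% of the others. The share of all genes found more often in such wells was not counted, so these counts do not set the members apart. Kept wells also held cells other than neurons, whose part was not tested. Over the 15 plates the log2(CPM + 10) of Nefl had Pearson r of 0.96 with Nefm and 0.93 with Sncg, Nefm 0.94 with Sncg, and Nefh 0.92 with Sncb, while Nefm and Sncb had 0.05; the plates share their stages, so these values describe the courses only.

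Among 8483 genes with a mean of at least 20 CPM, the nearest to each member on that scale were as follows. Nefl was nearest to Nefm, Ywhah (r = 0.946), which encodes a 14-3-3 adaptor, and Sncg. Nefm was nearest to Nefl, Sncg and Nr6a1 (r = 0.937), a nuclear receptor, and Sncg to Nefm, Atp8a1 (r = 0.937), a phospholipid flippase, and Nefl. Ina was nearest to Mapt (r = 0.96), which encodes the microtubule protein tau, Sept3 (r = 0.936) and Uchl1 (r = 0.936). Nefh was nearest to Atp6v1d (r = 0.973), a subunit of the vesicular proton pump, Tex2 (r = 0.972) and Iqsec2 (r = 0.97). Sncb was nearest to Lrrc55 (r = 0.988), Eef1a2 (r = 0.988), a translation elongation factor of neurons and muscle, and Atp6v1g2 (r = 0.987). Prph, itself below the minimum, was nearest to Zfp804a (r = 0.865), Myadm (r = 0.846) and Crabp1 (r = 0.792).

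On the P4 and P7 plates, members were compared between Pou4f1-positive wells (259 to 296 a plate) and Pou4f1-negative wells (23 to 35 a plate) of the same plate, with the plate as a block. All 6 members tested were higher in the positive wells, where 32.4% of 13276 genes were called and 15.7% were called higher; Prph was too low to test. Log2 differences ran from 1.90 (Sncb, SE 0.29, adjusted p = 0.000144) to 2.60 (Nefm, SE 0.35, adjusted p = 4.1e-05). Nefl, for example, was 129, 106, 234 and 223 CPM in positive wells of P4 plates 1 and 2 and P7 plates 1 and 2, and 47.0, 9.97, 11.8 and 107 CPM in negative wells. Median depth was 19132 to 23964 counts in positive and 4183 to 10220 in negative wells. With wells thinned to 4000 UMIs before gating, the differences were 0.22 to 1.23 and 3 members were called (Nefl, Sncg and Ina), with 8.88% of genes called. Nefh also lost its call without P7 plate 1 (adjusted p = 0.0634). Wells that lost their Pou4f1 UMIs in thinning counted as negative, and negative wells then numbered 64 to 92 a plate. The thinned fit therefore cannot tell depth from the change of gate.

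Within the Pou4f1-positive wells, 3 transmitter and receptor genes mark subregions: Tac1, which encodes substance P, marks the dorsal medial habenula, Chat, which makes acetylcholine, marks the ventral medial habenula, and the receptor gene Gpr151 is known from the lateral habenula and part of the medial one. Sncg and Nefl differed by Tac1. Sncg was 60.3 and 31.0 CPM in Tac1-positive wells of the P4 plates and 64.4 and 83.7 at P7, against 23.0, 16.0, 22.6 and 22.7 CPM in Tac1-negative wells. Nefl was 214, 115, 327 and 291 CPM in Tac1-positive and 104, 104, 141 and 159 CPM in Tac1-negative wells. Both were higher in Tac1-positive wells on 4 of 4 plates.

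The log2 difference with Tac1 was 1.48 for Sncg (SE 0.14, adjusted p = 1.2e-06) and 0.87 for Nefl (SE 0.11, adjusted p = 4.04e-05); 2 of 6 members were called, with 10.8% of 12708 genes called. Both kept their calls in all 7 alternatives, thinning among them (1.34 and 1.38). Thinned wells were gated again, and Tac1-positive wells were then 15 to 56 a plate instead of 47 to 145. The thinned fit therefore cannot tell depth from the change of gate. Nefh was at 0.58 (SE 0.19, adjusted p = 0.0541) and Nefm at 0.41 (SE 0.14, adjusted p = 0.0822), Ina at -0.04 (adjusted p = 0.739) and Sncb at -0.17 (adjusted p = 0.163). With thinned wells Nefm was at 1.07 and was called (adjusted p = 0.0013), as it was without P4 plate 2 (0.59, adjusted p = 0.000527), the plate on which it was lower in Tac1-positive wells, and Nefh was called without P7 plate 2. Nefh was at -0.05 in thinned wells (adjusted p = 0.985).

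Chat-positive wells had less Sncg on 4 of 4 plates and less Nefl on 3 of 4. Sncg was 22.2, 18.4, 24.0 and 27.0 CPM in Chat-positive wells of the 4 plates and 47.0, 18.9, 67.7 and 79.8 CPM in Chat-negative ones, and Nefl was 107, 107, 148 and 145 against 166, 101, 342 and 308 CPM. The P4 plate 2 values were nearly equal for both genes. Log2 differences were -1.14 for Sncg (SE 0.18, adjusted p = 0.000749), -0.75 for Nefl (SE 0.15, adjusted p = 0.00311) and -0.42 for Nefm (SE 0.13, adjusted p = 0.0445), so 3 of 6 members were lower, with 11.7% of 12633 genes called and 6.72% called lower. Nefh was at -0.27 (adjusted p = 0.332), Ina at 0.09 (adjusted p = 0.309) and Sncb at 0.19 (adjusted p = 0.116), and in thinned wells at 0.54, 0.18 and -0.11 (adjusted p from 0.371 to 0.937), so Nefh and Sncb changed sign. Chat-positive wells were deeper (medians 24434 to 28655 against 16172 to 19830 counts). With wells thinned to 4000 UMIs and gated again, no member was called: Sncg was at -0.54 (adjusted p = 0.738), Nefl at -0.58 (adjusted p = 0.118) and Nefm at -0.22 (adjusted p = 0.895). Many wells lost their Chat UMIs in thinning and then counted as negative. Positive wells were 33 to 59 a plate instead of 112 to 184, and negative wells 162 to 186 instead of 107 to 155. The thinned fit therefore cannot tell depth from the change of gate. Nefl was also not called without either P7 plate (adjusted p = 0.0508 and 0.0606), nor Nefm without P4 plate 1 or either P7 plate (adjusted p from 0.112 to 0.346, and -0.24 without P7 plate 2) or with 2 Chat UMIs required (adjusted p = 0.0928), and without P4 plate 2 Sncb was called as higher.

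Gpr151-positive wells had less of both light and medium subunits. Nefl was 115, 100.5, 191 and 180.5 CPM in positive and 151, 113, 346.5 and 361 CPM in negative wells, and Nefm 41.2, 35.4, 93.5 and 80.7 against 47.9, 52.8, 142 and 166 CPM. Each was lower on 4 of 4 plates, by 0.63 (SE 0.10, adjusted p = 0.000318) and 0.63 (SE 0.11, adjusted p = 0.000725) on the log2 scale. Both kept their calls in all 7 alternatives, at -0.76 and -1.15 after thinning. Median depth was 21255 to 24724 counts in Gpr151-positive and 14785 to 22330 in Gpr151-negative wells. After thinning and gating again, positive wells were 59 to 100 a plate instead of 145 to 209. The thinned fit therefore cannot tell depth from the change of gate. Sncb fell by 0.24 (SE 0.07, adjusted p = 0.0373), a call lost without P7 plate 1 or either P4 plate (adjusted p from 0.129 to 0.246) and after thinning (adjusted p = 0.213) or without the filter on low counts (adjusted p = 0.19). In this gate 3 of 6 members were called, with 6.42% of 12570 genes called. Nefh went the other way, at 27.0, 25.8, 52.6 and 52.9 CPM in positive and 17.3, 18.4, 48.1 and 41.9 CPM in negative wells, without passing the test (0.37, SE 0.13, adjusted p = 0.129). Sncg was at -0.11 (adjusted p = 0.82) and Ina at 0.02 (adjusted p = 0.916).

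**Figure D3:**
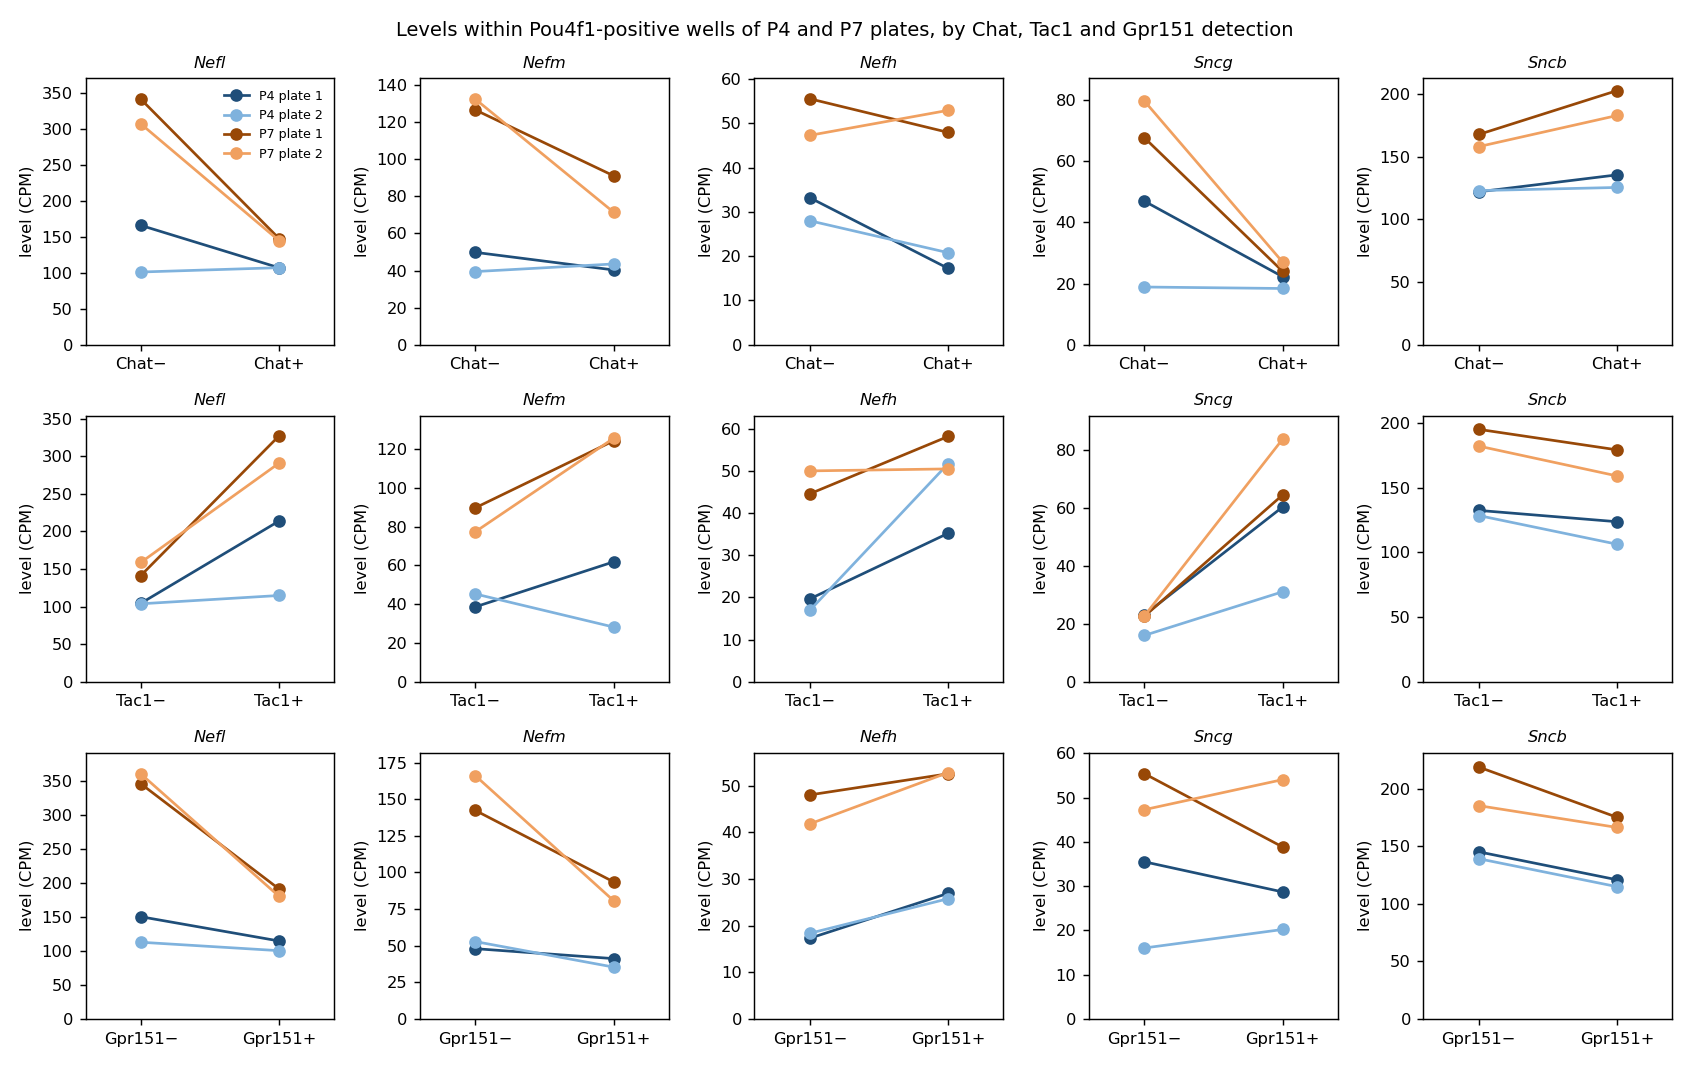
Level (CPM, linear axis from 0) of 5 members in wells without and with a UMI of Chat, Tac1 or Gpr151, within Pou4f1-positive wells; each line joins the 2 sets of wells of 1 plate (P4 blue, P7 brown). Sncg and Nefl are higher on the right in every line of the Tac1 panels (Sncg from 22.7 to 83.7 CPM on P7 plate 2), and Nefl and Nefm are lower on the right in every Gpr151 line.

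At E18 in C57BL/6 mice, Nefl was 108 and 56.3 CPM on the left plates, 158 and 112 on the right plates and 197 on that of both. Nefm was 29.6 and 35.2 CPM on the left, 61.2 and 48.7 on the right and 61.9 on both sides. For these 2 genes the left and right plates did not overlap, and for Nefh, Ina, Sncg and Sncb they did. The share of all genes without such overlap was not counted, so this does not set the 2 genes apart. None of the 6 members tested was called between sides by edgeR, nor was any of the 15489 genes (0%; 182 had an unadjusted p under 0.05, and DESeq2 called 1). The log2 difference, right over left, was 0.77 for Nefm (SE 0.23, unadjusted p = 0.00659, adjusted p = 1) and 0.67 for Nefl (SE 0.28, unadjusted p = 0.0379, adjusted p = 1); it ran from -0.36 (Nefh) to 0.08 (Sncb) for Nefh, Sncg, Ina and Sncb. The erythroid list differed between the same plates, at 18974 and 17144 CPM on the left and 3396 and 262 on the right, and its part in these values was not tested; 80 of the 337 Nefm UMIs of right plate 1 came from 1 well.

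The C57BL/6 plates lay above the 2 E18 plates of the other line for Sncb and Nefm. Sncb was 61.1 to 87.6 CPM over the 5 plates against 0 and 38.4, and Nefm 29.6 to 61.9 against 9.18 and 27.1. Nefl, at 56.3 to 197 CPM, overlapped the 65.6 of E18 plate 2. Line, sorting and plate cannot be told apart here, so no test was made. The share of all genes that lay apart in this way was not counted. The neuron list was 3581 and 10578 CPM on the 2 E18 plates of the other line and 9229 to 10721 CPM on the C57BL/6 plates. Its part in these levels was not tested. Prph was found in 0.601% to 3.76% of C57BL/6 wells, and 19 of the 20 Prph-positive wells were Pou4f1-positive, against 45.9% to 80.7% of the other wells of these plates. On each plate the Prph-positive wells were deeper, at medians of 23819 to 58538 counts against 16941 to 28768, and the part of depth was not tested.

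Genes that work with the members were taken as 2 lists. Of 21 neurofilament partners (other intermediate filaments, linkers, motors and kinases), 1 rose and 6 fell from E11 to P7, with a median log2 change of -0.36 beside 0.03 over all genes tested, of which 28.6% were called in either direction. Lmnb1, a nuclear lamina subunit, fell by 3.12 (adjusted p = 7e-05), Nes, the progenitor filament nestin, fell by 3.91 (adjusted p = 0.00501) and Kif5b, a kinesin motor, fell by 0.70 (adjusted p = 0.0206), while Lmna rose by 1.92 (adjusted p = 0.013). From E18 to P4, 3 rose and 2 fell, beside 19.6% of all genes called: Kif5a, the neuronal kinesin that carries neurofilaments, rose by 1.52 (adjusted p = 0.0334) and Cdk5, a kinase that phosphorylates their side arms, rose by 0.76 (adjusted p = 0.0252), while Lmnb1 and Nes fell by 2.05 and 2.58. A list of 7 progenitor markers summed to 2345 and 100.3 CPM on the E18 plates and to 232 and 229 CPM at P4, and its part in these falls was not tested.

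Of 14 synuclein partners, 7 rose and 2 fell from E11 to P7 (median 1.31) and 8 rose and 2 fell from E18 to P4 (median 1.39, beside -0.07 over all genes), where 28.6% and 19.6% of all genes were called. From E18 to P4, Syp, a synaptic vesicle protein, rose by 2.57 (adjusted p = 0.00676) and Snap25, a fusion protein, by 2.36 (adjusted p = 0.0076), and Hspa8, a chaperone, fell by 1.64 (adjusted p = 0.00712). The neuron list was 3581 and 10578 CPM on the E18 plates and 9656 and 9536 CPM at P4, and its part in these changes was not tested.

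Few of the members' counts came from unspliced molecules. Over all genes, 17.7% to 29.2% of UMIs on a plate were unspliced. On plates with at least 100 UMIs of the gene, the share was 0.115% to 6.94% for Nefl, 0% to 4.14% for Nefm, 0% to 0.579% for Nefh, 0.59% to 3.23% for Ina, 0% to 1.42% for Sncg and 0% to 1.72% for Sncb.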

How the data were processed

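Expression was measured by CEL-seq2 in single wells of 20 plates. Reads were aligned to mm10 with STAR 2.5.3a, per the submitters' processing notes, and trimming used Trim Galore; the counting tool and its strand setting are not named there. The deposited values are expected counts: judged from the values, they equal whole UMIs corrected for collisions among 4096 possible barcodes, since inverting that correction gave whole UMIs for every value (tolerance 1e-06). Spliced and unspliced counts were deposited apart.

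Counts of kept wells were summed per plate, rounded and tested with edgeR 4.0.16 (quasi-likelihood, TMM, genes filtered by filterByExpr, Benjamini-Hochberg over all genes tested) in R 4.3.3, with DESeq2 1.42.0 as an alternative. The SE given with an edgeR log2 change is its absolute value divided by the square root of the test's F statistic. CPM, sums and shares were computed in Python 3.11.15. A well counted as myelin-rich when the oligodendrocyte list made up at least 1% of its counts. The scripts were tested on simulated data: for E11 to P7, with 16304 genes, 99% of genes changed by 2 on the log2 scale and 21% of those changed by 1 were recovered, with 4 false calls. The simulation gave all genes the same fixed spread, not that of these plates, and changed only genes with a mean over 20 CPM. In the real contrast, members other than Prph had standard errors of 0.61 to 1.04, and Nefl at -1.96 was not called. The recovered shares are therefore not the power of that contrast. Of the gene identifiers, 37938 of 37994 and 36050 of 36104 were in GENCODE M21. Promoters came from RefSeq tables, matched by symbol for Prph, Sncg, Sncb and Ina.

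All 7 members were named in each contrast, those not called partly as ranges and Prph by its p alone where plates were at 0, with the 3 genes of highest Pearson r to each and at most 4 called partner genes of smallest p per list. The members, lists and tests were chosen with earlier results of these data known. Alternatives were other scaling, no filter, spliced counts, recovered UMIs, other gates, thinning and leaving out plates. Results for some genes are not reported here.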

Additional observations from a re-analysis of the deposited data

How the results depend on the processing

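Each stage had 2 plates, and those of E13, E15 and E18 were unlike. In brackets after a count of members stands the share of all genes called by the same fit. Without a filter on low counts, the members called in all kept wells were 6 (E11 to E13, 4.56%), 3 (E13 to E15, 3.32%), 1 (E15 to E18, 3.89%), 6 (E18 to P4, 12.8%), 1 (P4 to P7, 0.362%), 2 (P7 to adult, 4.7%) and 7 (E11 to P7, 14.3%), and in Pou4f1-positive wells 6 (E11 to E13, 4.06%), 3 (E13 to E15, 2.56%), 5 (E18 to P4, 11.4%), 1 (P4 to P7, 0.379%), 3 (P7 to adult, 4.08%) and 7 (E11 to P7, 16.4%); the cause was not tested. DESeq2 called 2 (E11 to E13, 5.34%) and 1 (E18 to P4, 23.4%). Fits of the 4 plates of a contrast called 0 (E11 to E13, 1.43%), 6 (P4 to P7, 3.64%) and 2 (P7 to adult, 4.79%). From E18 to P4, spliced counts gave 1 (20.9%) and leaving out high-count wells gave 3 (21.6%). With E13 plate 2, E15 plate 1 and E18 plate 1 left out, each the plate of lower neuron list at its stage, chosen after seeing the data, the counts were 4 (E11 to E13, 2.7%), 2 (E13 to E15, 1.79%), 2 (E18 to P4, 15.2%), 1 (P4 to P7, 0.269%), 3 (P7 to adult, 15%) and 7 (E11 to P7, 41.4%). In Pou4f1-positive wells from E18 to P4, the gate of neuron markers gave 0 (18.8%) and 2 or more Pou4f1 UMIs gave 2 (21.7%). Thinned wells, gated again after thinning, gave 3 in the Pou4f1 gate (8.88%) and 0 in the Chat gate (1.49%), and no filter gave 4 in the Tac1 gate (5.32%).

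Leaving out 1 plate at a time, the members called in all kept wells ranged from 0 to 4 (E11 to E13, 0.151% to 5.5%), 0 to 0 (E13 to E15), 0 to 2 (E15 to E18, 0.0199% to 10.5%), 0 to 7 (E18 to P4, 3.08% to 28.5%), 0 to 0 (P4 to P7), 0 to 1 (P7 to adult, 0.145% to 8%) and 2 to 6 (E11 to P7, 11.3% to 33.5%). In Pou4f1-positive wells they ranged from 0 to 3 (E11 to E13, 0.178% to 2.85%), 0 to 3 (E18 to P4, 6.25% to 22.9%) and 4 to 6 (E11 to P7, 16.6% to 36.1%), and were 0 to 0 in the other contrasts and between left and right. In the gates they ranged from 5 to 6 (Pou4f1, 26.1% to 27.5%), 1 to 4 (Chat, 6.33% to 13.1%), 2 to 3 (Tac1, 6.93% to 10.9%) and 2 to 3 (Gpr151, 4.18% to 6.05%). The log2 change of Sncb from E15 to E18, 0.26 with all plates, ranged from -8.76 (without E18 replicate 2, where Sncb was at 0 on the remaining plate, so that the size is no bound) to 2.10. No common pairing by replicate number was seen in the developmental set. Over 21 pairs of stages the correlation of deviations ran from -0.50 to 0.45, and it was over 0.1 in 5. Plates of a stage also differed in cell mixture, so these values cannot settle whether the numbers pair. Between left and right the correlation was 0.28, from 1 pair, which cannot settle whether their numbers pair. The main test of sides used no pairing. With the replicate number as a block, 0 members were called from E11 to E13 (1.12%) and 4 from E11 to P7 (26.9%), where Sncg was not called (adjusted p = 0.0506).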
